A study of Sus scrofa with 11 samples.

Results

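The genes described here encode fibronectin and 7 matricellular proteins of the arterial wall: FN1, THBS1, THBS2, CCN1, CCN2, TNC, POSTN and SPARC. They were chosen by name, with earlier results of these data known, and matched to Ensembl pig identifiers in the count tables. All 8 were found among 25880 genes there, and all 8 passed the filter on low counts that 15348 genes passed. RNA sequencing counts came from 11 libraries of porcine coronary artery. They comprised stented vessels kept in a bioreactor under the stronger of the flow marks (stented high-flow, 3 libraries), stented vessels kept static (stented static, 2 libraries), unstented vessels under the weaker flow mark (low-flow, 2 libraries), unstented vessels under the stronger flow mark (high-flow, 2 libraries) and native vessels that were not cultured (native, 2 libraries). The labels give no flow rate, culture time, strain, age or stent type.

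A suffix d with the number 3 stands on both stented static labels and on no other, so whatever it marks cannot be told apart from static culture. A suffix d with the number 7 stands on stented high-flow replicate 3, and the number 25 appears in the labels of native replicate 2 and stented high-flow replicate 1. What these numbers mean is not stated in the labels. Nothing says that replicates came from separate animals, so p-values measure the spread between these libraries, which may be technical.

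Fibronectin is a large secreted glycoprotein that cells stretch into fibrils through the integrin made of the chains ITGA5 and ITGB1, and these fibrils act as a scaffold for collagen and for growth factor complexes. Matricellular proteins are secreted into the same matrix but mainly act on cells, by binding integrins, proteoglycans, growth factors and proteases. In arteries they are best known for low expression in settled adult wall and for induction after injury, stretch or a change of smooth muscle state, and fibronectin is known as a component of the thickened intima.

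Library totals ranged from 13496636 to 26785124 counts. Each of the 8 genes had between 845 and 756765 counts in every library, so counting error was small beside the spread between libraries. FN1 alone took 1.75% to 3.83% of all counts in stented high-flow libraries, 0.208% and 0.706% in stented static, and 2.01% and 2.23% in low-flow libraries. It took 1.75% and 0.652% of them in high-flow, against 0.131% and 0.124% in native libraries. Levels are given in CPM, a gene's counts scaled to a common library total with TMM factors, which allow a gene to be compared between libraries but not one gene with another. Changes are log2 fold changes ± standard error from edgeR's quasi-likelihood test, called at a Benjamini-Hochberg adjusted p under 0.05 over all genes tested.

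FN1, the fibronectin gene (chromosome 15, 117658158 to 117737145, Sscrofa11.1), was higher in cultured vessels under flow than in native vessels, with or without a stent. It had 21060.1, 42454 and 18241 CPM in the stented high-flow libraries. It had 1797 and 6107 CPM in stented static, 19635 and 20909 CPM in low-flow, and 17818 and 6354 CPM in high-flow libraries. In native libraries it had 1495 and 1449 CPM. Every library under flow lay above every stented static and native library, and the first stented static library lay just above the native pair. The mean order was stented high-flow, low-flow, high-flow, stented static and native, and only the ranges of stented high-flow and low-flow overlapped between neighbours.

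FN1 rose in stented high-flow against native by a log2 fold change of 4.21 ± 0.70, a fold of 18.5 (95% interval on the log2 scale 2.67 to 5.75, edgeR adjusted p = 0.00196, n = 3 and 2). This call was kept when each library was left out in turn, with log2 fold changes of 3.74 to 4.43. In low-flow against native the log2 fold change was 3.78 ± 0.70 (edgeR adjusted p = 0.00767, n = 2 each), but the adjusted p was 0.0736 without the first native library and 0.0731 without the other. In high-flow against native it was 3.04 ± 0.68 (edgeR adjusted p = 0.0143, n = 2 each). The adjusted p there was 0.101 without either native replicate, and 0.102 without high-flow replicate 1, where the log2 fold change was 2.12. In stented static against native the log2 fold change of 1.42 ± 0.64 did not pass the test (edgeR adjusted p = 0.167). These are bulk samples, in which fewer cells of a type and less RNA per cell cannot be told apart.

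**Figure D1:**
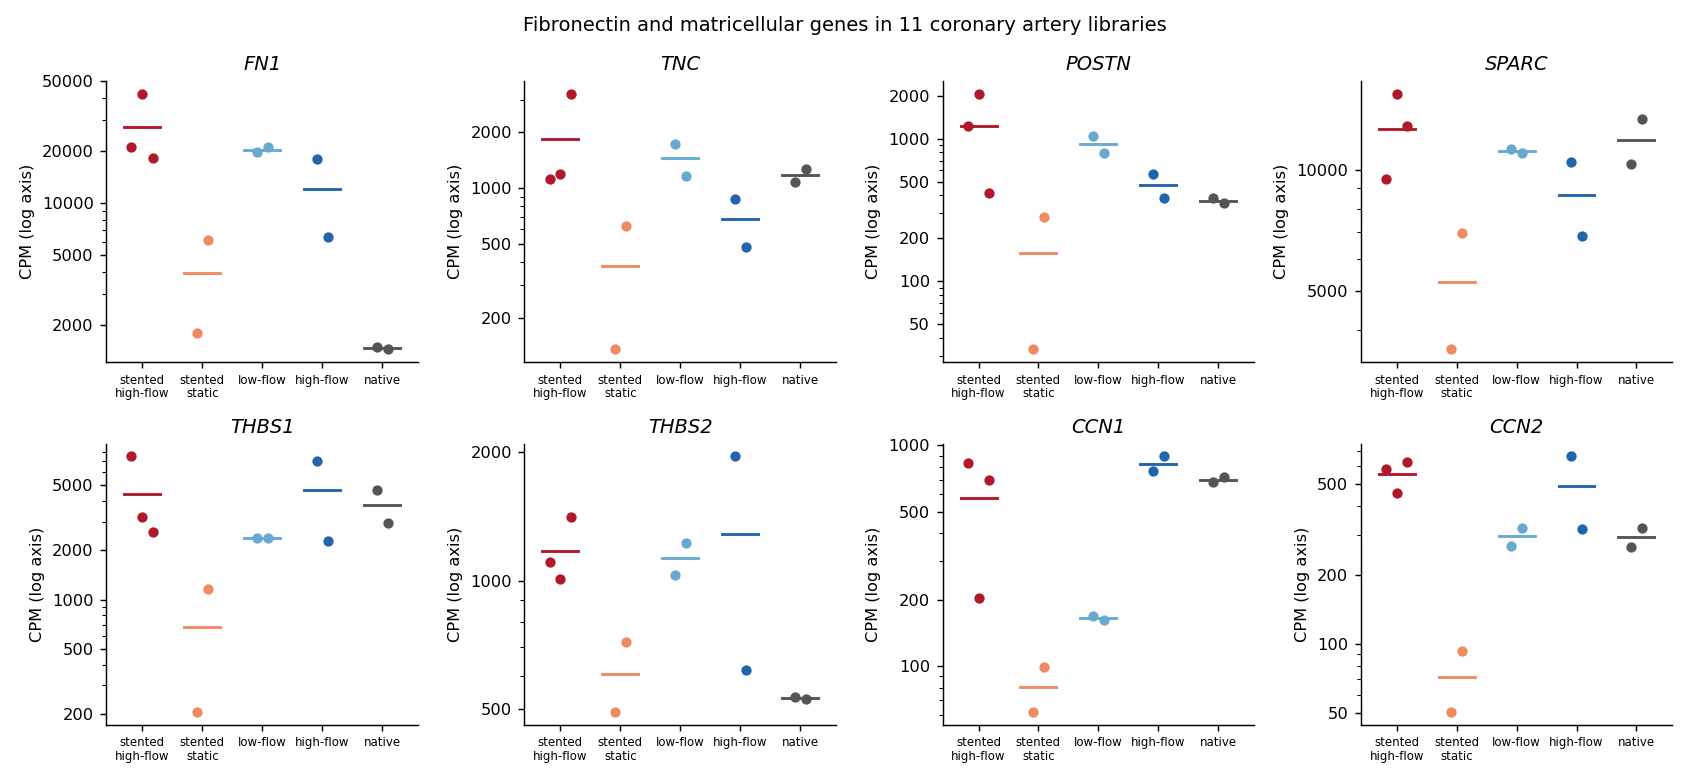
Level of each of the 8 genes in every library, in CPM on a log axis, by group (points, libraries; bars, group means). FN1 lay at 6354 CPM or more in every library under flow, against 1495 and 1449 CPM in native vessels, while CCN1 and CCN2 were lowest in both stented static libraries.

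THBS1 encodes thrombospondin-1 (chromosome 1, 131728781 to 131746098), which binds the receptors CD47 and CD36 and can release active TGF-beta from its latent complex. It had 7496, 3180.1 and 2578 CPM in stented high-flow and 206 and 1160.1 CPM in stented static libraries. It had 2366 and 2395 CPM in low-flow, 7037 and 2297 CPM in high-flow, and 4668 and 2926 CPM in native libraries. The stented static libraries were the lowest of the 11, and the first high-flow library and the first stented high-flow library were the highest. THBS1 did not pass the test in stented static against native, with a log2 fold change of -2.47 ± 0.81 (edgeR adjusted p = 0.0675, n = 2 each). Without stented static replicate 2, the library of the pair nearer native, its log2 fold change was -4.20, with a single library left in that group. With all libraries, DESeq2 called it at an adjusted p of 0.00531, as did edgeR without the filter on low counts, with 0.0114.

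THBS2 encodes thrombospondin-2 (chromosome 1, 854473 to 882467), a relative that inhibits angiogenesis and lacks the TGF-beta activating sequence. It had 1106, 1011 and 1408 CPM in stented high-flow, 493 and 717 CPM in stented static, 1029.8 and 1225 CPM in low-flow, and 1954 and 617 CPM in high-flow libraries. Native libraries had 535 and 529 CPM. All 7 libraries under flow lay above both native libraries, while stented static overlapped native. The log2 fold changes against native were 1.14 ± 0.43 in stented high-flow, 1.08 ± 0.46 in low-flow and 1.27 ± 0.46 in high-flow. None passed the edgeR test, with adjusted p of 0.0757, 0.146 and 0.0872. Without high-flow replicate 2, the library of the pair nearer native, THBS2 had a log2 fold change of 1.92 in high-flow. That leaves a single library in the group. DESeq2 gave it an adjusted p of 0.0358 in stented high-flow vessels and 0.0438 in high-flow vessels.

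CCN1 and CCN2 encode small cysteine-rich proteins that bind integrins and heparan sulfate, are transcribed within minutes of stimulation and are widely used as readouts of the stretch-responsive regulators YAP and TAZ. CCN1, also called CYR61 (chromosome 4, 130392404 to 130395179), had 829.7, 203 and 696 CPM in stented high-flow and 62.2 and 99.0 CPM in stented static libraries. It had 169 and 162 CPM in low-flow, 762 and 891 CPM in high-flow, and 683 and 716 CPM in native libraries. High-flow and native libraries were high and close together, low-flow and stented static libraries were low without overlapping each other, and stented high-flow replicate 2 lay well under the other stented high-flow libraries. The mean order was high-flow, native, stented high-flow, low-flow and stented static.

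CCN1 fell in stented static against native, with a log2 fold change of -3.12 ± 0.55 (edgeR adjusted p = 0.00571, n = 2 each), a level 8.68-fold lower. This call was kept when each of the 4 libraries was left out in turn. CCN1 also fell in low-flow against native, with a log2 fold change of -2.08 ± 0.53 (edgeR adjusted p = 0.0286, n = 2 each). That call ended whichever library was left out, with adjusted p of 0.105 without native replicate 1, 0.117 without native replicate 2, 0.167 without low-flow replicate 1 and 0.165 without low-flow replicate 2. CCN1 did not pass against native in the stented high-flow group, with a log2 fold change of -0.28 ± 0.46 (edgeR adjusted p = 0.701), nor in the high-flow group, with 0.24 ± 0.51 (adjusted p = 0.794). Their 95% intervals ran from -1.30 to 0.74 and from -0.88 to 1.37.

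CCN2, also called CTGF (chromosome 1, 31674398 to 31677697), had 586, 459 and 629 CPM in stented high-flow and 50.4 and 93.2 CPM in stented static libraries. It had 269 and 324 CPM in low-flow, 662 and 317 CPM in high-flow, and 266.5 and 323 CPM in native libraries. The low-flow and native pairs lay within the same range, all 3 stented high-flow libraries lay above native, and the stented static pair was the lowest of all. CCN2 fell in stented static against native by 2.04 ± 0.41 on the log2 scale (edgeR adjusted p = 0.0104, n = 2 each). The adjusted p was 0.0791 when stented static replicate 1 was left out and 0.0806 when native replicate 2 was. In low-flow against native its log2 fold change was 0.01 ± 0.39. The 95% interval of -0.86 to 0.87 leaves changes of up to that size possible in either direction.

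**Figure D2:**
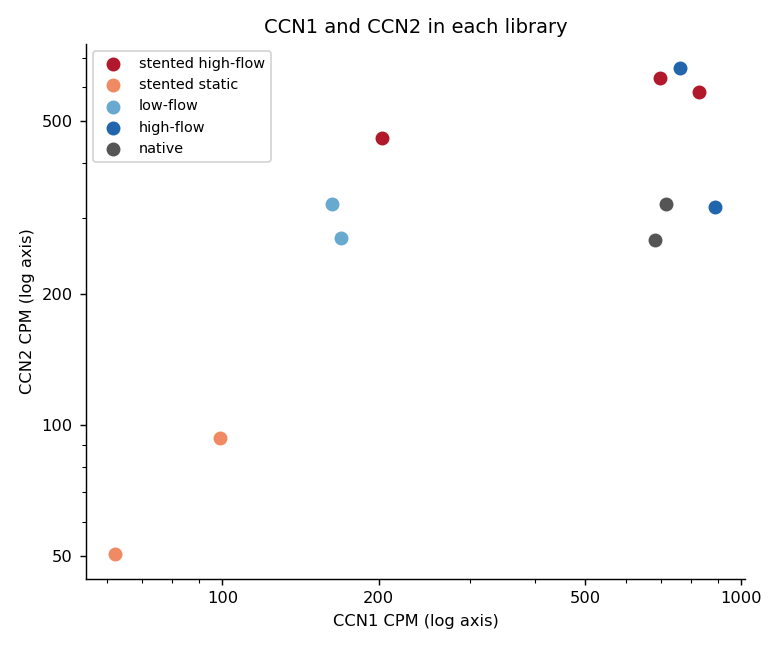
CCN1 against CCN2 in CPM in each of the 11 libraries, both axes log, coloured by group. Both stented static libraries lay at under 100 CPM for both genes, and the low-flow pair had CCN1 at 162 and 169 CPM with CCN2 at 269 and 324 CPM, where native vessels had CCN1 at 683 and 716 CPM.

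TNC encodes tenascin-C (chromosome 1, 255533235 to 255630381), a glycoprotein of healing and stretched tissue that loosens adhesion to fibronectin. It had 1116, 1199 and 3233 CPM in stented high-flow, 135 and 623 CPM in stented static, 1727 and 1166 CPM in low-flow, 879 and 483 CPM in high-flow, and 1083 and 1268 CPM in native libraries. Stented static and high-flow libraries lay under native, while stented high-flow and low-flow overlapped native. TNC did not pass the edgeR test in any group against native, the smallest adjusted p being 0.144 in stented static, with a log2 fold change of -1.63 ± 0.69. Without stented static replicate 2, the library of the pair nearer native, its log2 fold change was -3.12, with a single library left in that group.

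POSTN encodes periostin (chromosome 11, 13225183 to 13258973), which binds fibronectin and collagen and aids collagen cross-linking. It had 1226, 2061 and 417 CPM in stented high-flow, 33.4 and 283 CPM in stented static, 1037 and 795 CPM in low-flow, 564 and 384 CPM in high-flow, and 380.3 and 353 CPM in native libraries. All libraries under flow lay above native and both stented static libraries lay under it, by a wide margin only in the first. The log2 fold changes against native were 1.75 ± 0.79 in stented high-flow, -1.21 ± 0.83 in stented static, 1.32 ± 0.83 in low-flow and 0.37 ± 0.82 in high-flow. None passed the edgeR test, with adjusted p of 0.133, 0.364, 0.325 and 0.802. Without stented static replicate 2, the library of the pair nearer native, the stented static change was -3.45, with a single library left in that group. DESeq2 called the stented high-flow change with an adjusted p of 0.0459.

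SPARC encodes osteonectin (chromosome 16, 71368164 to 71380972), a calcium- and collagen-binding protein needed for collagen fibril assembly. It had 9488, 15464.5 and 12887 CPM in stented high-flow, 3574 and 6947 CPM in stented static, 11254 and 11007 CPM in low-flow, 10472 and 6849.9 CPM in high-flow, and 10314 and 13376 CPM in native libraries. Stented high-flow, low-flow and native libraries overlapped, and stented static libraries lay under native. SPARC had log2 fold changes against native of 0.09 ± 0.38 in stented high-flow, -1.17 ± 0.42 in stented static, -0.09 ± 0.41 in low-flow and -0.45 ± 0.41 in high-flow. None passed the edgeR test, with adjusted p of 0.886, 0.0876, 0.914 and 0.503. Without stented static replicate 2, the library of the pair nearer native, the stented static change was -1.73, with a single library left in that group. DESeq2 called the stented static change with all libraries (adjusted p = 0.0240).

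Counted together against native, 1 of the 8 genes rose and none fell in stented high-flow (FN1), where edgeR called 24.3% of all genes tested, 10.4% as higher and 13.9% as lower. All libraries lay above native for 4 of the 8 genes there and under it for none, against 25.4% and 27.6% of all genes. In stented static, none rose and 2 fell (CCN1 and CCN2), where edgeR called 12.7% of all genes, 5.54% as higher and 7.19% as lower. Both libraries lay above native for 1 gene there and under it for 6, against 28.9% and 29.8% of all genes.

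In low-flow, 1 rose and 1 fell (FN1 and CCN1), where edgeR called 12.4% of all genes, 5.03% as higher and 7.38% as lower. Both libraries lay above native for 3 genes there and under it for 2, against 33.5% and 34.4% of all genes. In high-flow, 1 rose and none fell (FN1), where edgeR called 14.8% of all genes, 5.94% as higher and 8.86% as lower. Both libraries lay above native for 4 genes there and under it for 1, against 31.3% and 31.5% of all genes. Nothing particular to the 8 genes is read from these counts of 1 or 2. These comparisons share the same 2 native libraries. The median log2 fold change of the 8 genes against native was 0.79 in stented high-flow, -1.42 in stented static, 0.15 in low-flow and 0.33 in high-flow. Over all genes tested, the medians were 0.06, 0.02, -0.00 and 0.02.

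**Figure D3:**
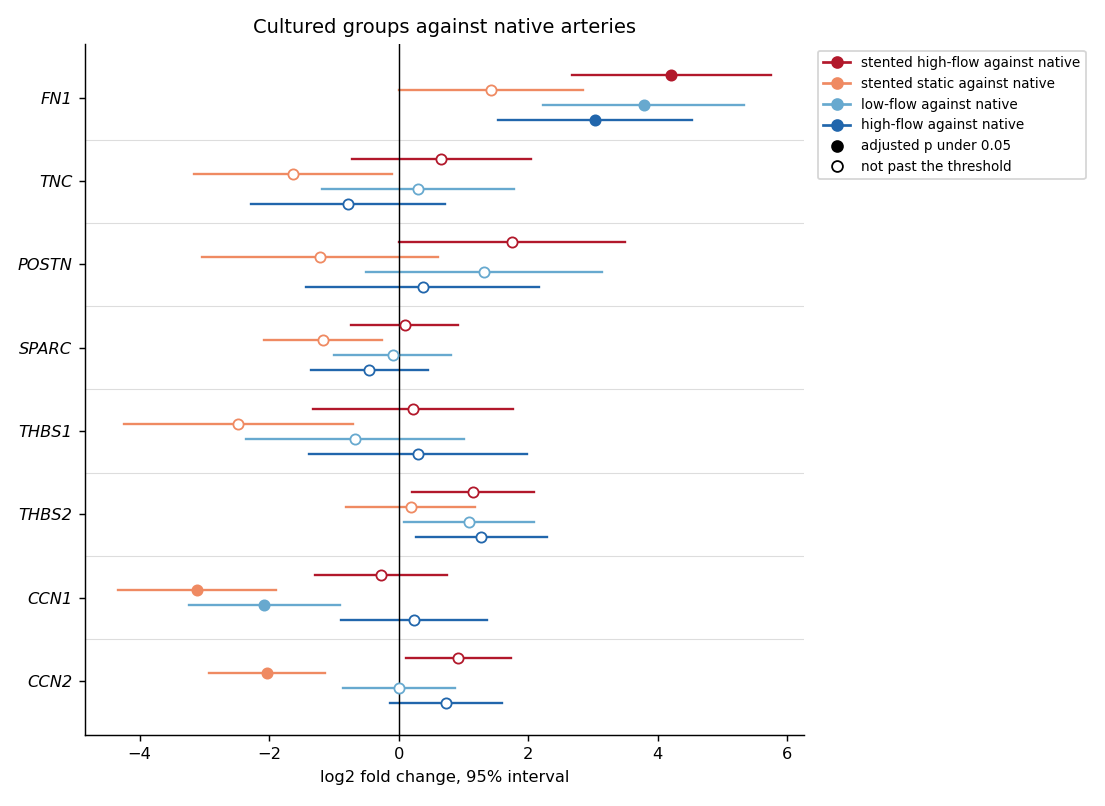
Log2 fold change of each gene in each cultured group against native vessels with its 95% interval (filled points passed the edgeR test at an adjusted p under 0.05). FN1 passed in the 3 groups under flow, with log2 fold changes of 4.21, 3.78 and 3.04, and CCN1 passed in stented static and low-flow vessels, at -3.12 and -2.08.

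Stented vessels under flow were then set against stented vessels kept static. These groups differ in the flow label and in the suffix d with the number 3, so flow and whatever that suffix marks cannot be told apart. All 8 genes were higher in each of the 3 stented high-flow libraries than in both stented static libraries, which held for 14.4% of all genes tested, while 15.7% were lower in each. FN1, CCN1 and CCN2 passed the edgeR test as higher and none passed as lower, where edgeR called 2.85% of all genes tested, 1.18% as higher and 1.67% as lower. The median log2 fold change of the 8 genes was 2.74, against 0.01 over all genes. The 8 genes were chosen with earlier results of these data known, so these contrasts with all genes are a description only.

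CCN2 averaged 558 ± 88.4 CPM in stented high-flow and 71.8 ± 30.3 CPM in stented static vessels (SD, n = 3 and 2), a log2 fold change of 2.96 ± 0.41 (edgeR adjusted p = 0.00704). CCN1 averaged 576 ± 329.8 CPM and 80.6 ± 26.0 CPM in the same groups, a log2 fold change of 2.84 ± 0.53 (edgeR adjusted p = 0.0206). FN1 averaged 27252 ± 13241 CPM in stented high-flow and 3952 ± 3048 CPM in stented static vessels, a log2 fold change of 2.79 ± 0.65 (edgeR adjusted p = 0.0468). The other 5 had log2 fold changes of 0.96 for THBS2, 1.26 for SPARC, 2.29 for TNC, 2.69 for THBS1 and 2.96 for POSTN, with edgeR adjusted p of 0.0875 to 0.250.

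The first stented static library was the lower of the pair for each of the 8 genes, and the 3 calls rested on it. Without it the adjusted p was 0.259 for FN1, 0.159 for CCN1 and 0.0516 for CCN2, and the log2 fold changes were 2.15, 2.53 and 2.57. Without stented static replicate 2, a single stented static library is left, and the log2 fold changes of THBS1, TNC and POSTN were 4.42, 3.79 and 5.21. FN1 also missed the threshold without stented high-flow replicate 1 (adjusted p = 0.0501), replicate 2 (0.118) or replicate 3 (0.0502). When only these 5 libraries were fitted, edgeR called none of the 8 and 32 genes in all, and DESeq2 on all libraries called 7 of the 8, leaving out THBS2. Of 5 adipocyte markers tested, 4 (ADIPOQ, PLIN1, FABP4 and CIDEC) were called lower in stented high-flow than in stented static vessels, and none was called without stented static replicate 1 or without any single stented high-flow library. Their sum was 24.9 to 64.2 CPM in stented high-flow, against 1878 CPM in stented static replicate 1 and 119 CPM in replicate 2, and their part in the result was not tested.

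**Figure D4:**
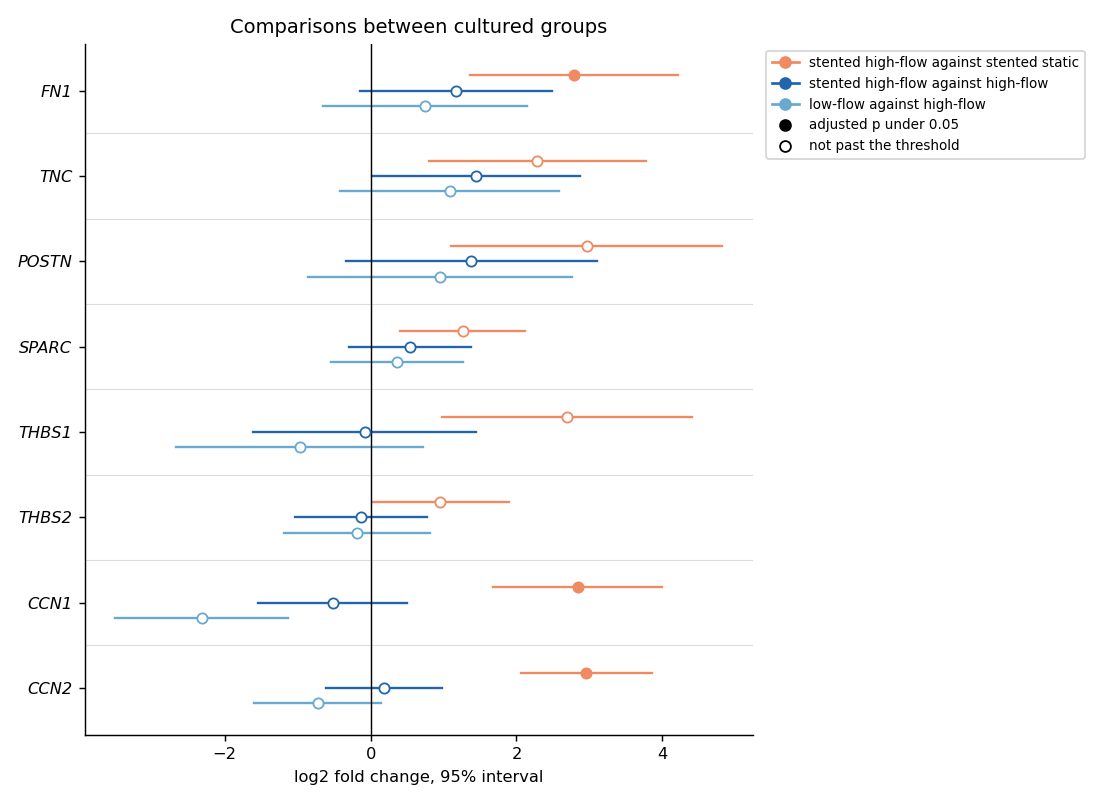
Log2 fold change of each gene between cultured groups with its 95% interval (filled points passed the edgeR test at an adjusted p under 0.05). All 8 genes lay to the right of 0 in stented high-flow against stented static vessels, where FN1, CCN1 and CCN2 passed at 2.79, 2.84 and 2.96, and no gene passed in the other comparisons.

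Stented high-flow vessels were set against high-flow vessels, which differ by the stent and by the deposited count table that held them. The stent and whatever that split reflects cannot be told apart. None of the 8 genes passed the edgeR test, and 0% of all genes tested did. At an unadjusted p under 0.05 edgeR picked 1 of the 8 and 467 genes in all, and DESeq2 called none of the 8 and 6 genes in all. The gene picked was TNC, with 1116, 1199 and 3233 CPM in stented high-flow against 879 and 483 CPM in high-flow libraries, a log2 fold change of 1.44 ± 0.65 (edgeR adjusted p = 1). FN1 and TNC were higher in every stented high-flow library than in both high-flow libraries and no gene of the 8 was lower in every one, against 5.49% and 6.97% of all genes. FN1 had a log2 fold change of 1.17 ± 0.60 and a 95% interval of -0.14 to 2.49. The intervals of CCN1 (-1.54 to 0.50) and CCN2 (-0.61 to 0.98) leave changes of that size possible in either direction. The median over the 8 genes was 0.37, against 0.03 over all genes.

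Low-flow vessels were set against high-flow vessels, both without a stent. None of the 8 passed the edgeR test, where 0.104% of all genes tested did, 0.0261% as higher and 0.0782% as lower, and at an unadjusted p under 0.05 edgeR picked 1 of the 8 and 1236 genes in all. Both low-flow libraries lay above both high-flow libraries for 4 of the 8 genes (FN1, TNC, POSTN and SPARC) and under them for 1, against 22.9% and 22.3% of all genes. CCN1 had 169 and 162 CPM in low-flow against 762 and 891 CPM in high-flow libraries, and the pairs did not overlap. Its log2 fold change was -2.32 ± 0.54, with a 95% interval of -3.50 to -1.14 and an edgeR adjusted p of 0.301. DESeq2 called it with an adjusted p of 0.00352, and edgeR without the filter on low counts did so with 0.0265. CCN2 overlapped between the pairs, at a log2 fold change of -0.73 ± 0.39 (edgeR adjusted p = 0.669). The median over the 8 genes was 0.09, against -0.00 over all genes.

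A joint test for any difference among the 4 cultured groups, which uses no native library, called CCN1 (edgeR adjusted p = 0.0340) and CCN2 (0.0254), where it called 1.02% of all genes tested. Both calls ended without stented static replicate 1 (adjusted p = 0.110 for CCN1 and 0.123 for CCN2), without low-flow replicate 1 (0.0905 and 0.0638) or without low-flow replicate 2 (0.107 and 0.0666). CCN1 also missed the threshold without high-flow replicate 1 (0.0664) or replicate 2 (0.0745). FN1 did not pass (edgeR adjusted p = 0.161).

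The 8 genes did not vary as a block. Within the 3 stented high-flow libraries, replicate 2 had the highest FN1, POSTN and SPARC and the lowest THBS2, CCN1 and CCN2, and replicate 1 had the highest THBS1 and CCN1. Replicate 3 had the highest THBS2, CCN2 and TNC and the lowest FN1, THBS1 and POSTN. The highest library was 4.94 times the lowest for POSTN and 1.37 times for CCN2. In high-flow, the first library was above the second for 7 of the 8 genes, the exception being CCN1. Among the cultured groups the low-flow pair lay closest for each of the 8 genes, with the higher library 1.012 times the lower for THBS1 and 1.48 times for TNC.

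Across the 9 cultured libraries, which share their TMM scaling and the group differences above, Pearson's r of log2 CPM was 0.97 between FN1 and SPARC, 0.95 between FN1 and POSTN and 0.92 between THBS1 and CCN2. It was 0.83 between CCN1 and CCN2 and 0.42 between FN1 and CCN1. With the native libraries included (11 libraries), r was 0.47 between FN1 and SPARC, 0.74 between FN1 and POSTN, 0.89 between THBS1 and CCN2, 0.77 between CCN1 and CCN2 and 0.0098 between FN1 and CCN1. Among 8401 genes with a symbol and a mean log2 CPM of at least 3, those whose log2 CPM followed FN1 most closely over the 11 libraries were SEC24D (r = 0.98), ADAM12 (0.98), COPB2 (0.98), CPSF3 (0.97) and ZC3H12C (0.97). By the same measure SPARC was nearest to COL1A2 (0.95), TTI2 (0.95) and COL3A1 (0.95), and TNC to SPARC (0.90), COL1A2 (0.90) and FZD7 (0.90). CCN2 was nearest to INHBA (0.94), PARP8 (0.93) and SFRP1 (0.93), and CCN1 to TRAPPC2 (0.92), AFAP1 (0.92) and PDE4B (0.91). THBS1 was nearest to RBBP7 (0.95) and ASPN (0.94), THBS2 to PPP1R8 (0.92) and SNRNP40 (0.91), and POSTN to CTSO (0.94) and BBS7 (0.94).

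Receptors for these proteins were led by ITGA5, the alpha chain of the fibronectin integrin. ITGA5 had 1648, 1434 and 1806 CPM in stented high-flow, 939 and 817 CPM in stented static, 1202 and 1125 CPM in low-flow, and 1082 and 1431 CPM in high-flow libraries. Native libraries had 147 and 180.3 CPM, far under every cultured library. ITGA5 rose against native in all 4 cultured groups, with log2 fold changes of 3.31 ± 0.30 in stented high-flow, 2.42 ± 0.29 in stented static, 2.83 ± 0.30 in low-flow and 2.94 ± 0.30 in high-flow (edgeR adjusted p = 0.000115, 0.000947, 0.000505 and 0.00057). Each call was kept when single libraries were left out. Its partner chain ITGB1, singled out after its values were seen, was not called in any group, with log2 fold changes of 0.86, -0.80, 0.66 and 0.33 in the same order.

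SDC1, a heparan sulfate proteoglycan that binds fibronectin and thrombospondin, rose against native by log2 fold changes of 2.63 ± 0.34 in stented high-flow vessels and 2.83 ± 0.36 in high-flow vessels (edgeR adjusted p = 0.000546 and 0.00103), and both calls were kept without any single library. ITGA9, an integrin chain that binds tenascin-C, fell in stented high-flow against native, with a log2 fold change of -2.05 ± 0.31 (edgeR adjusted p = 0.00114). Of 21 receptor genes tested, 4 rose and 5 fell in stented high-flow, 1 rose and 1 fell in stented static, 4 rose and none fell in low-flow, and 4 rose and 1 fell in high-flow against native. Their median log2 fold changes were 0.26, 0.50, 0.47 and 0.01, beside 0.06, 0.02, -0.00 and 0.02 over all genes, of which 10.4%, 5.54%, 5.03% and 5.94% were called higher and 13.9%, 7.19%, 7.38% and 8.86% lower. In stented high-flow the rises numbered 2 without native replicate 2, and the falls 2 without either native library. In low-flow the rises numbered 1 or 2 whichever library was left out, and in high-flow 2 without either native library or high-flow replicate 1. The fall in stented static was lost without native replicate 1 or stented static replicate 1 and became 3 without stented static replicate 2, where the rises numbered 2. The fall in high-flow was lost whichever library was left out.

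**Figure D5:**
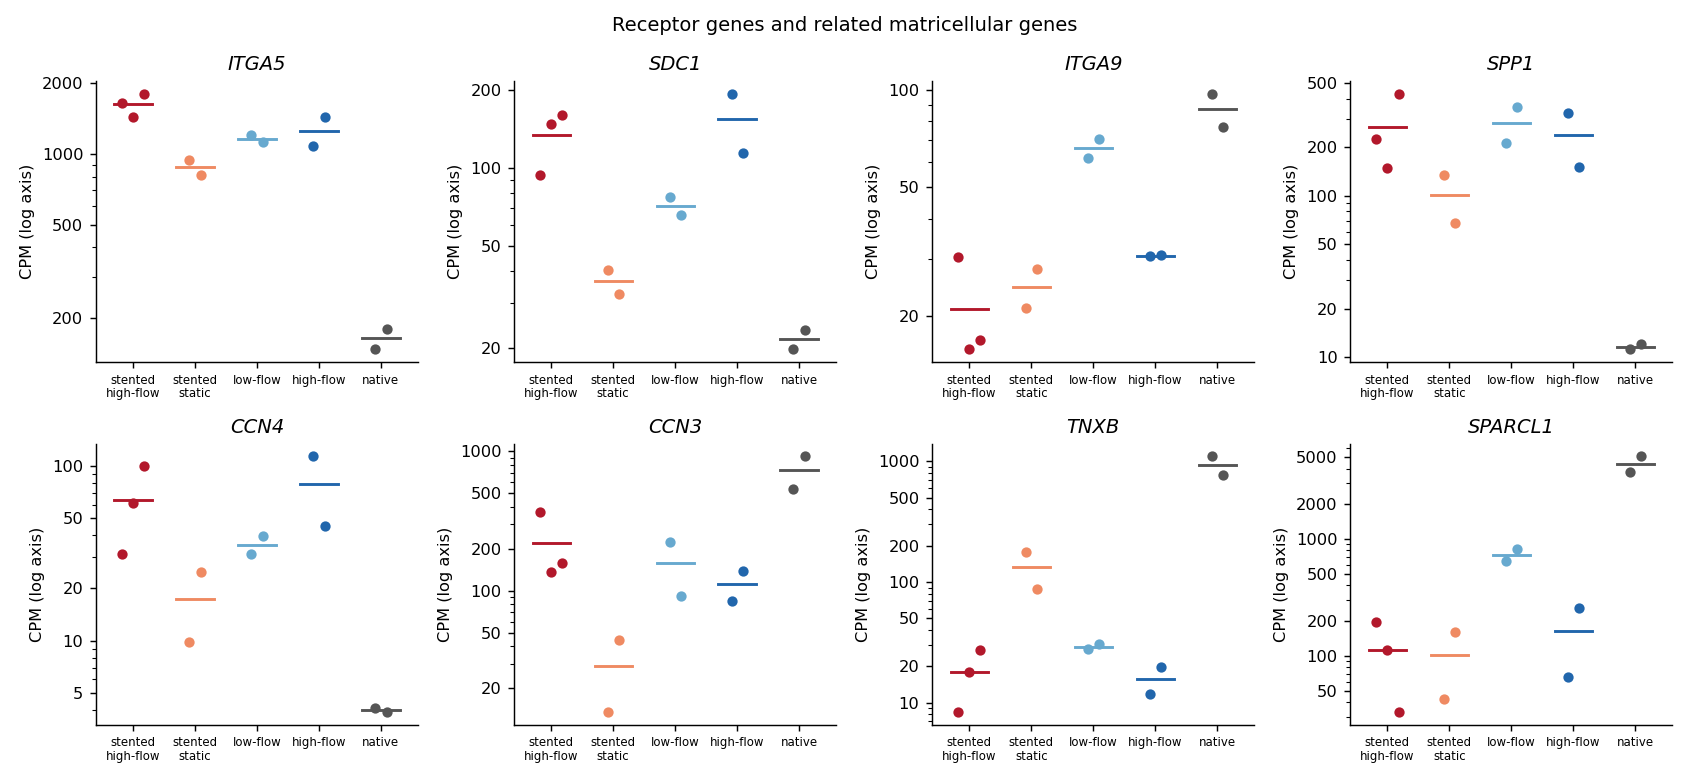
Level of 3 receptor genes and 5 related matricellular genes in every library, in CPM on a log axis, by group (points, libraries; bars, group means). ITGA5, SPP1 and CCN4 were lower in native vessels than in every cultured library, while TNXB and SPARCL1 were highest in native vessels.

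Other matricellular and related glycoproteins moved in both directions. SPP1, which encodes osteopontin, had 226, 149 and 429 CPM in stented high-flow, 135 and 67.6 CPM in stented static, 213 and 354 CPM in low-flow, 324 and 151 CPM in high-flow, and 11.2 and 12.0 CPM in native libraries. It rose against native in each group, by log2 fold changes of 4.53 ± 0.60 in stented high-flow, 3.12 ± 0.58 in stented static, 4.61 ± 0.62 in low-flow and 4.35 ± 0.61 in high-flow (edgeR adjusted p = 0.000636, 0.00719, 0.00158 and 0.00174). The stented static call ended without either native replicate, at an adjusted p of up to 0.0738. CCN4, a relative of CCN1 also called WISP1, rose by log2 fold changes of 3.99 ± 0.64 in stented high-flow vessels and 4.30 ± 0.67 in high-flow vessels (edgeR adjusted p = 0.00158 and 0.00258), and both calls were kept without any single library.

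TNXB, the tenascin of loose connective tissue, fell to 8.39, 18.1 and 27.1 CPM in stented high-flow libraries, against 1099 and 779 CPM in native libraries (log2 fold change -5.71 ± 0.51, edgeR adjusted p = 0.000115). SPARCL1, a close relative of SPARC that is typical of quiescent vascular smooth muscle, fell to 194, 111 and 33.0 CPM in stented high-flow and 42.9 and 160.3 CPM in stented static libraries, against 3782 and 5098 CPM in native libraries. Its log2 fold changes were -5.30 ± 0.81 and -5.45 ± 0.98 (edgeR adjusted p = 0.00129 and 0.00595). CCN3, also called NOV and known to restrain smooth muscle growth, fell in stented static against native, with a log2 fold change of -4.65 ± 0.75 (edgeR adjusted p = 0.0035). SPARC itself was not called, and TNC, the tenascin among the 8, was not called either.

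Of 22 such glycoprotein genes tested, 3 rose and 6 fell in stented high-flow, 2 rose and 7 fell in stented static, 2 rose and 3 fell in low-flow, and 2 rose and 6 fell in high-flow against native. Their median log2 fold changes were 0.12, -1.003, -0.61 and -0.94, beside 0.06, 0.02, -0.00 and 0.02 over all genes. Of all genes, 10.4%, 5.54%, 5.03% and 5.94% were called higher and 13.9%, 7.19%, 7.38% and 8.86% lower in the same groups. The falls in stented static numbered 3 without native replicate 1, and 4 without native replicate 2 or stented static replicate 2, and its rises 0 without either native library. The falls in high-flow numbered 2 without high-flow replicate 1, and the rises in low-flow 1 without either native library or low-flow replicate 2.

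Genes of the YAP and TEAD pathway, to which CCN1 and CCN2 belong as targets, were mostly not called. Of 22 tested, 1 rose and 4 fell in stented high-flow, none rose and 2 fell in stented static, 1 rose and 2 fell in low-flow, and 2 rose and 2 fell in high-flow against native. Median log2 fold changes were 0.04, -0.18, 0.19 and -0.04. The shares over all genes were 10.4%, 5.54%, 5.03% and 5.94% higher and 13.9%, 7.19%, 7.38% and 8.86% lower, and the medians 0.06, 0.02, -0.00 and 0.02. AJUBA, a scaffold that restrains the kinase LATS, fell in all 4 groups, with log2 fold changes of -3.05 ± 0.36, -2.61 ± 0.41, -3.18 ± 0.42 and -3.53 ± 0.43 (edgeR adjusted p = 0.000323, 0.00312, 0.00147 and 0.00089), and kept each call without any single library. NT5E, of the same list, rose against native in stented high-flow by a log2 fold change of 3.98 ± 0.61 (edgeR adjusted p = 0.00126). It also rose in low-flow, by 2.45 ± 0.59, and in high-flow, by 2.81 ± 0.60 (edgeR adjusted p = 0.0229 and 0.0113). In stented high-flow against stented static NT5E was higher by 3.73 ± 0.60 (edgeR adjusted p = 0.0123). CRIM1, a target that encodes a BMP-binding membrane protein, fell in stented high-flow against native, with a log2 fold change of -2.71 ± 0.32 (edgeR adjusted p = 0.000325). ANKRD1, another target, was called lower in stented high-flow against native, but its native libraries had 162 and 0.518 CPM, and without native replicate 1 its log2 fold change was 2.92. That call (edgeR adjusted p = 0.0444) also ended without stented high-flow replicate 2 (0.129) or replicate 3 (0.106). The falls in stented high-flow numbered 2 without native replicate 1 or stented high-flow replicate 2 or 3, and whichever library was left out the rises numbered 0 in low-flow and 0 or 1 in high-flow. The falls numbered 4 in stented static without its replicate 2, and 1 in low-flow without either low-flow library.

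Cytoskeletal genes driven by the SRF cofactors MRTFA and MRTFB, which also act on CCN1 and CCN2, were called lower where they passed the test against native. None was called higher against native. In stented high-flow against stented static CNN2 was called higher, at 1.52 ± 0.33 (edgeR adjusted p = 0.0368), and none was called lower. The list median there was 1.02, beside 0.01 over all genes. Of 15 tested, 6 fell in stented high-flow, 10 in stented static, 4 in low-flow and 6 in high-flow against native, with median log2 fold changes of -1.33, -1.74, -1.20 and -1.11. The list also holds the regulators SRF, MRTFA and MRTFB themselves, and SRF is counted among the falls in each group. It shares ACTA2, CNN1 and TAGLN with the contractile smooth muscle markers given below. Across all genes 13.9%, 7.19%, 7.38% and 8.86% were called lower in these groups, and the medians were 0.06, 0.02, -0.00 and 0.02. Without native replicate 2 the falls numbered 3 in stented high-flow and 5 in stented static. In low-flow none was called whichever library was left out, and in high-flow 2 were without either native library or high-flow replicate 1. CNN1, the actin-binding protein calponin, fell by log2 fold changes of -3.70 ± 0.82 in stented high-flow and -5.09 ± 1.03 in stented static (edgeR adjusted p = 0.00891 and 0.011), the stented static call ending at 0.0509 without native replicate 2.

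Among TGF-beta ligands, receptors and targets, members of one list went opposite ways. The inhibitor SMAD7, itself a target, fell in stented high-flow against native with a log2 fold change of -2.26 ± 0.27, and the ligand TGFB3 with -1.997 ± 0.43 (edgeR adjusted p = 0.000355 and 0.00729), the TGFB3 call ending at 0.0626 without native replicate 2. INHBA, which encodes an activin subunit and was the gene most like CCN2, had 690, 324 and 463 CPM in stented high-flow against 22.7 and 32.2 CPM in stented static libraries. Its log2 fold change there was 4.17 ± 0.47 (edgeR adjusted p = 0.0029), and the call was kept without any single library. Of 20 genes tested, 2 rose and 6 fell in stented high-flow, 2 rose and 7 fell in stented static, and 2 rose and 6 fell in both low-flow and high-flow against native, with median log2 fold changes of -0.06, -0.75, -0.20 and -0.39. In the same order, 10.4%, 5.54%, 5.03% and 5.94% of all genes were called higher and 13.9%, 7.19%, 7.38% and 8.86% lower, with medians of 0.06, 0.02, -0.00 and 0.02. The falls numbered 4 in stented static without native replicate 2 or stented static replicate 1. They numbered 2 or 3 in low-flow without native replicate 2 or either low-flow library, and 2 in high-flow without native replicate 2 or either high-flow library. The rises numbered 0 or 1 without either native library in each group. They numbered 4 in stented high-flow without its replicate 3, 1 in stented static without its replicate 1, 1 in low-flow without either low-flow library and 1 in high-flow without its replicate 1.

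More genes on a list of proteases known to cut fibronectin or matricellular proteins were called higher than lower in each group. The list also holds PLAUR, which is not a protease and is counted among the rises in each group. Of 14 tested, 10 rose and 1 fell in stented high-flow, 7 rose and 2 fell in stented static, 7 rose and 1 fell in low-flow, and 9 rose and 1 fell in high-flow against native, with median log2 fold changes of 2.06, 1.73, 1.92 and 1.78. The matching shares of all genes were 10.4%, 5.54%, 5.03% and 5.94% as higher and 13.9%, 7.19%, 7.38% and 8.86% as lower, with medians of 0.06, 0.02, -0.00 and 0.02. Without either native library the rises numbered 5 in stented high-flow and 4 in stented static. They numbered 2 or 3 in low-flow whichever library was left out, and in high-flow 2 without native replicate 1, 3 without native replicate 2 and 4 without high-flow replicate 1. The falls in stented static were lost without either native library or its replicate 1, and the fall in low-flow without its replicate 2. PLAUR, the urokinase receptor, rose in stented high-flow by a log2 fold change of 4.65 ± 0.43 (edgeR adjusted p = 0.000115). MMP9, a gelatinase, had 201, 141 and 243 CPM in stented high-flow and 0.13 and 0.0575 CPM in native libraries. ADAMTS1, a protease of thrombospondin type, fell in stented high-flow, with a log2 fold change of -1.86 ± 0.38 (edgeR adjusted p = 0.00555).

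Fibronectin assembly and adhesion genes gave 3 rises and 5 falls among 23 tested in stented high-flow, no rise and 5 falls in stented static, no rise and 4 falls in low-flow, and 2 rises and 6 falls in high-flow against native, with median log2 fold changes of -0.47, -0.51, 0.11 and -0.41. Among all genes the rises were 10.4%, 5.54%, 5.03% and 5.94% and the falls 13.9%, 7.19%, 7.38% and 8.86%, with medians of 0.06, 0.02, -0.00 and 0.02. Without native replicate 1 the rises numbered 1 and the falls 1 in stented high-flow, and without native replicate 2 they numbered 0 and 3, while without stented high-flow replicate 2 the falls numbered 2. The falls in stented static numbered 1 or 2 without either native library or its replicate 1. In low-flow the falls numbered 0 or 1, and in high-flow 1 or 2, whichever library was left out, and the high-flow rises were lost without either native library or high-flow replicate 1. BMP1, which trims matrix precursors, rose in stented high-flow by a log2 fold change of 1.84 ± 0.38 (edgeR adjusted p = 0.0061), a call that ended at 0.0745 without native replicate 2. TNS3, a tensin of adhesion sites, fell with a log2 fold change of -2.34 ± 0.27 (edgeR adjusted p = 0.000321).

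Markers of cell types differed between the groups alongside these genes. The 7 contractile smooth muscle markers summed to 3162 to 4959 CPM in stented high-flow, 409.7 to 2046 CPM in stented static, 6207 to 6597 CPM in low-flow, 1257 to 4163 CPM in high-flow and 24585 to 29648 CPM in native libraries. The 7 fibroblast and adventitia markers, most of whose sum is COL1A1, reached 19210.2 to 48335 CPM in stented high-flow, 9001 to 17176 CPM in stented static, 28033 to 28152 CPM in low-flow, 14893 to 38521 CPM in high-flow and 23251 to 28973 CPM in native libraries. Their lower value in each of the stented static and high-flow pairs fell in the library with the lower FN1, THBS1, THBS2, TNC, POSTN and SPARC. The stented high-flow libraries did not all follow this order. There replicate 3 had the highest marker sum and the lowest FN1, THBS1 and POSTN. Replicate 1 had the lowest marker sum and the lowest TNC and SPARC, but the highest THBS1. The adventitial marker PI16 had 2.29 to 12.8 CPM in the cultured libraries and 266 and 294 CPM in native ones. Other markers of this list went both ways against native. PDGFRA was called higher in each cultured group, with log2 fold changes of 2.77 in stented high-flow, 2.67 in stented static, 3.42 in low-flow and 2.39 in high-flow. LUM was called higher in stented high-flow, with 2.61, and MFAP5 was called lower in every cultured group but high-flow.

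The 7 macrophage markers summed to 268 to 530.5 CPM in stented high-flow, 678 to 1625 CPM in stented static, 577 to 693 CPM in low-flow, 245 to 415 CPM in high-flow and 271 to 297.9 CPM in native libraries. The stented static and low-flow ranges overlapped, and both lay above the others. CD163 had the highest mean of these markers in each cultured group, and single markers went both ways against native. CD163 and MSR1 were called higher in each cultured group. CSF1R was called lower in stented high-flow, with a log2 fold change of -2.35, and in high-flow, with -2.55. The 6 endothelial markers matched summed to 315 to 454 CPM in stented high-flow, 396 to 996 CPM in stented static, 522 to 726 CPM in low-flow, 476 to 642 CPM in high-flow and 787 to 932 CPM in native libraries. Adipocyte markers summed to 24.9 to 64.2 CPM in stented high-flow, 119 to 1878 CPM in stented static, 116 to 183 CPM in low-flow, 41.4 to 155 CPM in high-flow and 1076 to 1704 CPM in native libraries. Cardiomyocyte markers summed to 0.14 to 2.95 CPM in cultured libraries, against 602 CPM in native replicate 1 and 3.85 CPM in native replicate 2. The 4 platelet markers matched summed to 3.8 to 12.5 CPM across all libraries, with PPBP at 0 in both native libraries. Schwann cell markers summed to 10.7 to 157 CPM in the cultured libraries and 680.2 to 717 CPM in native ones. The part of these cell types in the changes of the 8 genes was not tested.

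The authors' deposited tables of changed genes against native listed FN1 in stented high-flow, low-flow and high-flow, at log2 fold changes of 4.20, 3.79 and 3.04. For CCN1 the authors' deposited tables gave -3.12 in stented static and -2.07 in low-flow vessels. The other 6 genes were not listed in the authors' deposited tables under the symbols used here.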

How the data were processed

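Total RNA of porcine coronary arteries was sequenced in 11 libraries. The authors deposited gene counts in 2 tables, joined here by gene. The native columns are identical in both. The stented libraries and the unstented cultured libraries stood in different tables. Trimmomatic, FastQC, DESeq2 and the Sscrofa11.1 build are named in the submitters' processing notes. The aligner, counting tool settings and strand: not given in the sources used here. Values from the authors' deposited tables of changed genes are log2 fold changes and were only quoted.

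Low genes were dropped with filterByExpr, library sizes were TMM-scaled, and all 5 groups were fitted together by edgeR 4.0.16 (R 4.3.3), whose quasi-likelihood test gave each comparison. Benjamini-Hochberg adjustment ran over 15348 genes, called at 0.05. The common dispersion was 0.126, with residual degrees of freedom of 6 and a prior of 5.02. Standard errors came from the F statistic. A prior count of 2 went into log2 CPM. The script was tested on simulated data with set changes. Over the comparisons it called 0.67% to 5.88% of 2-fold, 30.8% to 59.4% of 4-fold and 64.7% to 83.0% of 8-fold changes. False calls made up 3.10% to 5.38% of its calls. A gene that did not pass may therefore still have changed, above all at 2-fold.

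Members were matched by symbol. Coordinates are RefSeq gene spans, looked up for CCN1 and CCN2 by their older symbols CYR61 and CTGF. The members and the lists of related genes (183 of 200 matched) were chosen with earlier results of these data known. From each list, the 3 largest rises and falls among called genes could be named, with preference for calls kept without single libraries. No RefSeq sequence tables were used here, so no promoter motif search was run.

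Alternatives were DESeq2 1.42.0, RLE size factors, leaving the 8 genes out of the scaling, dropping the filter, a minimum of 10 counts in each library, a replicate block, only the groups compared, and leaving out each library. In groups of 2 libraries, leaving out a library leaves a single library, so calls gained that way rest on that library. Counts of the lists under these alternatives were chosen after seeing the data.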

Additional observations from a re-analysis of the deposited data

Results flagged for a closer look

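In 3 genes the change against native differed between the stented groups by the direct test of the groups against each other. FN1 was 2.79 higher on the log2 scale in stented high-flow than in stented static vessels, CCN1 was 2.84 higher and CCN2 was 2.96 higher (edgeR adjusted p = 0.0468, 0.0206 and 0.00704). All 3 were higher in 3 of 3 stented high-flow libraries than in both stented static libraries, and all 3 missed the threshold without stented static replicate 1.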

How the results depend on the processing

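With RLE size factors, or with the 8 genes left out of the scaling, the counts of called genes among the 8 were the same in every comparison. DESeq2 called 4 in stented static, 3 in stented high-flow vessels and 2 in high-flow vessels against native, 7 in stented high-flow against stented static, 1 in low-flow against high-flow and 6 among the cultured groups. Without a filter edgeR called 3 in stented static (THBS1 added), 3 in stented high-flow vessels and 2 in high-flow vessels against native, 6 in stented high-flow against stented static, 1 in low-flow against high-flow and 6 among the cultured groups. With only the groups compared it called 2 in stented high-flow and 4 in low-flow against native, 0 in stented high-flow against stented static and 0 among the cultured groups. With the replicate block it called 1 in stented high-flow against stented static (CCN2, while FN1 and CCN1 had adjusted p of 0.0729 and 0.072) and 0 among the cultured groups. The labels do not say whether the replicate numbers pair the libraries. Deviations of same-numbered libraries from their group means correlated at -0.33 to 0.18. In groups of 2 the deviations mirror each other, so these values cannot decide whether libraries were paired. The native and stented high-flow libraries that share the label number 25 were not compared in this way. With at least 10 counts in every library FN1 missed the threshold in stented high-flow against stented static (adjusted p = 0.0573). Leaving out single libraries gave 1 to 6 called genes in stented static, 1 in stented high-flow, 0 to 2 in high-flow and 0 to 1 in low-flow against native, 0 to 6 in stented high-flow against stented static, 0 in both other comparisons and 0 to 3 among the cultured groups.

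Signs turned only in log2 fold changes that were not called, apart from ANKRD1. With the replicate block TNC was at -0.019 in stented high-flow against native and THBS1 at 0.21 in stented high-flow against high-flow. CCN2 in low-flow against native was at -0.016 with DESeq2, -0.018 with RLE and -0.0298 with at least 10 counts. Without single libraries, stented high-flow against native ranged from -0.0889 to 0.33 for SPARC, -0.39 to 0.57 for THBS1, -0.62 to 0.13 for CCN1 and -0.0225 to 0.93 for TNC. The values of ANKRD1, stented high-flow against native, ranged from -5.42 to 2.92, the highest without native replicate 1. THBS2 in stented static against native ranged from -0.11 to 0.45 and THBS1 in high-flow against native from -0.72 to 0.94. Low-flow against native ranged from -0.13 to 0.19 for CCN2, -0.27 to 0.15 for SPARC and -0.00424 to 0.56 for TNC. Stented high-flow against high-flow ranged from -0.71 to 0.94 for THBS1, -0.75 to 0.93 for THBS2 and -0.27 to 0.82 for CCN2, and low-flow against high-flow from -1.59 to 0.0529 for THBS1 and -0.82 to 0.87 for THBS2. The cause was not tested.

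Over all genes, DESeq2 called 3042 against 1955 in stented static and 2876 against 1904 in low-flow against native, 1355 against 438 in stented high-flow against stented static, 6 against 0 in stented high-flow against high-flow, 105 against 16 in low-flow against high-flow and 1263 against 156 among the cultured groups. Without a filter the last comparisons but stented high-flow against high-flow gave 1003, 54 and 753, and with at least 10 counts 2 in low-flow against high-flow and 100 among the cultured groups. With only the groups compared, 4884 were called in low-flow against native, 32 in stented high-flow against stented static and 58 among the cultured groups. The replicate block gave 2489 against 3737 in stented high-flow against native, 185 in stented high-flow against stented static and 81 among the cultured groups. Most groups held 2 libraries, and the effect of depth was not tested.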
